A study of Homo sapiens with 12 samples.

Results

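The genes of cystine import and glutathione metabolism were followed through 10 members chosen by name: SLC7A11 and SLC3A2 for cystine uptake, CBS and CTH for transsulfuration, GCLC, GCLM and GSS for glutathione synthesis, GSR for glutathione reduction, and CHAC1 and CHAC2 for glutathione breakdown. They are 10 of the 26258 genes listed in the deposited table, and all 10 reached 1 CPM (reads per 1000000 reads counted on genes) in 2 or more libraries, the filter for testing, as did 13515 genes in all. RNA was sequenced from HLE cells, a human hepatocellular carcinoma line, transfected with a control siRNA (siCtrl), siRNAs against the transcriptional coactivators YAP and TAZ (siY/T) or an siRNA against the stress-response transcription factor ATF4 (siATF4), and cultured with the solvent DMSO or with 5 µM Sorafenib (Srf), a multikinase inhibitor used against liver cancer. Each of the 6 groups held 2 libraries, all from the same cell line. The labels do not say whether the 2 libraries came from separate cultures. The methods of the study call its RNA replicates biological but describe more of them per group than the labels list, so p-values measure the spread between these libraries, which may be technical. The Sorafenib dose is that of the labels, and a figure legend of the study gives a different one for this experiment.

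Glutathione is a tripeptide of glutamate, cysteine and glycine that cells use to reduce peroxides. Its supply is often limited by cysteine, which enters as cystine through system xc-, a pair of proteins in which SLC7A11 transports and SLC3A2 anchors the complex at the cell surface, or is made from homocysteine by CBS and CTH. Glutamate-cysteine ligase, with GCLC as catalytic and GCLM as modifier subunit, and then glutathione synthetase (GSS) build the tripeptide, GSR returns oxidised glutathione to the reduced form, and CHAC1 and CHAC2 cleave it. When cystine import or glutathione fails, lipid peroxides can accumulate and cells can die by ferroptosis. ATF4 is known to induce amino acid transport and synthesis genes under stress, and NRF2 (gene NFE2L2) is known to induce genes of glutathione synthesis and reduction.

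The promoter sequences are shown because these 2 regulators are known to act through short sequence elements. RefSeq promoter windows of 300 bases (250 before and 50 after a start site, build GRCh38.p14) were matched for SLC3A2, CHAC1, CHAC2, CBS, CTH, GCLC and GCLM. The reference used held no window for SLC7A11, GSS or GSR, so their promoters were not searched. Both strands were searched for TGATGNAA (C/EBP-ATF composite element), TGACGTCA (CRE), TGACNNNGC (antioxidant response element core) and GGAATG (TEAD motif core). The first stood in 3.62% of all 35116 windows, the CRE in 1.85%, the antioxidant core in 13.3% and the TEAD core in 14% of them. The 250 upstream bases of the windows with a match follow 5′ to 3′ on the strand of the gene, with matches in capitals, for CHAC1 at chr15:40953221-40953470 (plus strand), SLC3A2 at chr11:62881449-62881698 (plus), GCLM at chr1:93909431-93909680 (minus) and CBS at chr21:43076378-43076627 (minus).
CHAC1: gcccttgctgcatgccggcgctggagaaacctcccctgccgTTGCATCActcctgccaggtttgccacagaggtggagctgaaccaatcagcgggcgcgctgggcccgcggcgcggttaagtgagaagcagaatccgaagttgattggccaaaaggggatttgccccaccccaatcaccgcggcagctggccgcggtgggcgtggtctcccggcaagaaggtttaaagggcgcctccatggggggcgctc
SLC3A2: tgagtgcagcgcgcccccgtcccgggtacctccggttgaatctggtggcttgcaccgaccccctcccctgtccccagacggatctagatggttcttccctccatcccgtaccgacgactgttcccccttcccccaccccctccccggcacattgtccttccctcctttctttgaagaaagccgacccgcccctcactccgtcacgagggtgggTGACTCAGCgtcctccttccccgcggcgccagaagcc
GCLM: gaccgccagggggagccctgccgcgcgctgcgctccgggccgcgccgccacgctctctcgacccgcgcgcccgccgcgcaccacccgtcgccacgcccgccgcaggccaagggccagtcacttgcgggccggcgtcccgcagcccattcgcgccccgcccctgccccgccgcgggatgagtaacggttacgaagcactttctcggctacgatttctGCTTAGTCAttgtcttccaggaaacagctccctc
CBS: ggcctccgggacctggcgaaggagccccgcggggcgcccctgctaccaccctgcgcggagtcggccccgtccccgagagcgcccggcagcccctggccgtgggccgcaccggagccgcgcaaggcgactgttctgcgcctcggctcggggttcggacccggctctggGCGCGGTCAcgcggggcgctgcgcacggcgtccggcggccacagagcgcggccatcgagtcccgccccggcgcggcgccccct

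CHAC1 held the composite element on the opposite strand, with its first base at -209 from the start site. SLC3A2, in 1 of its 3 windows, held an antioxidant core at -37 and a composite element on the opposite strand at +38, which lies in the stretch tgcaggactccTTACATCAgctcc at chr11:62881725-62881748. GCLM held an antioxidant core on the opposite strand at -34, and CBS, in 1 of its 3 windows, held one on the opposite strand at -83. The windows of CHAC2, CTH and GCLC held none of the 4 motifs. A match describes these letters only and says nothing about binding.

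Library depth ranged from 41408348 to 53619732 reads counted on genes (median 47939445), so that 1 read was worth 0.0187 to 0.0242 CPM. The siRNA targets were lower in their own libraries. YAP1 measured 46.6 to 57.7 CPM with siY/T and 235.6 to 279.9 CPM elsewhere, WWTR1 (the TAZ gene) 49.3 to 68.6 against 104.2 to 173.2 CPM, and ATF4 84.6 to 100.7 CPM with siATF4 against 196.8 to 491.8 CPM. ATF4 mRNA itself was raised by Sorafenib in siCtrl cells (log2 fold change 0.97) and was lower with siY/T in Sorafenib (-0.63), while WWTR1 was lower with siATF4 in DMSO (-0.70). NFE2L2 lay between 45.8 and 66.1 CPM in every library and was not called in any siRNA comparison with siCtrl. Its log2 fold change with siY/T was -0.29 in DMSO (limma, SE 0.07, adjusted p 0.00221) and -0.14 in Sorafenib (adjusted p 0.113). With siATF4 it was 0.04 and -0.05. Of 8 hepatocyte markers, 7 stayed under 1 CPM in every library, ALB, APOB, TTR and HNF4A among them, and their sum ranged from 0.0429 to 2.44 CPM. The keratins KRT8 and KRT18 summed to between 975.3 and 3332 CPM and VIM lay between 1952 and 2916 CPM, while the 3 blood and endothelial markers summed to at most 0.0403 CPM. The defining markers of hepatocytes were thus at or near 0 in this carcinoma line. The 2 siY/T libraries in each culture differed from each other more than those of other groups, with a chi-square per gene of 20.7 in DMSO and 8.3 in Sorafenib against 2.98 to 5.77 elsewhere. The comparisons below share 1 spread per gene over all groups. Standard errors may therefore be too small with siY/T and too large elsewhere.

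**Figure D1:**
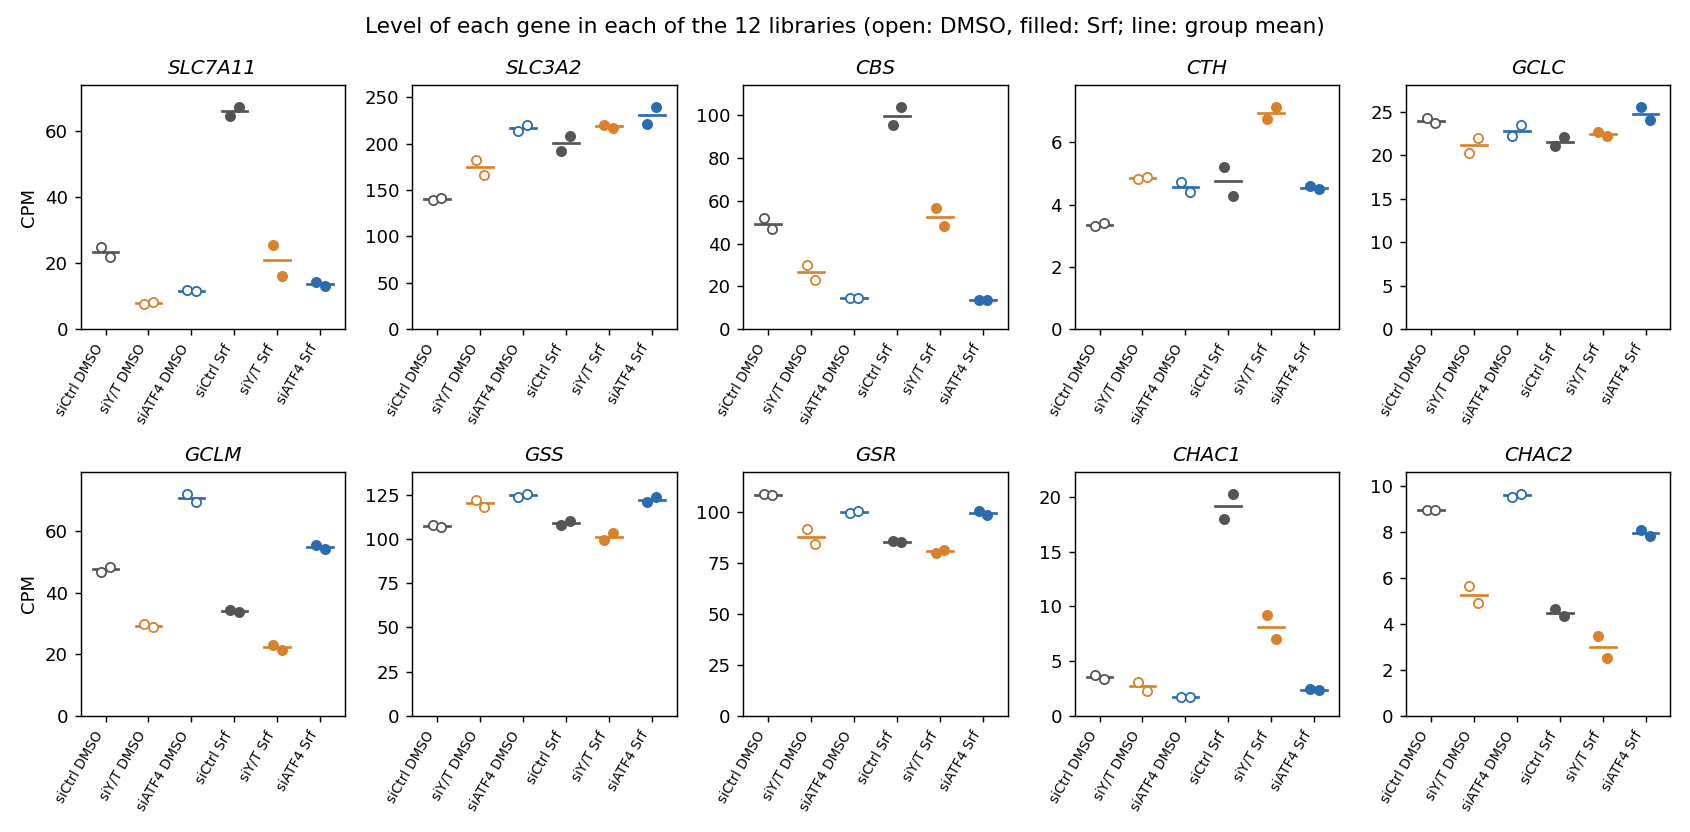
Level of each of the 10 genes in CPM (vertical axes, from 0) in each of the 12 libraries, by group; circles are libraries (open DMSO, filled Sorafenib) and lines are group means. SLC7A11, CBS and CHAC1 peaked in siCtrl cells with Sorafenib, at means of 65.8, 99.7 and 19.1 CPM, while GCLC lay between 20.2 and 25.5 CPM throughout.

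The genes differed widely in how much they varied across the 6 groups. The highest group mean exceeded the lowest by 11.1-fold for CHAC1, 8.31-fold for SLC7A11, 7.25-fold for CBS, 3.21-fold for CHAC2, 3.18-fold for GCLM and 2.07-fold for CTH. SLC3A2 (1.64-fold), GSR (1.34-fold), GSS (1.23-fold) and GCLC (1.17-fold) varied less. Per kb of canonical transcript, which allows levels to be set between genes, SLC3A2 had the highest level in siCtrl cells with DMSO (74.4 CPM per kb), followed by GSS (56.2), GSR (35.8), CBS (19.8), GCLM (9.77), CHAC2 (6.85), GCLC (6.33), SLC7A11 (2.41), CHAC1 (2.34) and CTH (1.60).

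Every comparison was made with limma on log2(CPM + 0.5), and every adjusted p-value is Benjamini-Hochberg adjusted over the 13515 genes tested. A gene was called changed where the unadjusted p was under 0.05 and the log2 fold change was 0.58 or more in either direction, which are the thresholds of the study. For scale, the libraries of the 2 groups did not overlap for 71.7% to 89.2% of all genes tested, depending on the comparison. Because all siRNA comparisons within 1 culture share the same siCtrl libraries, their values are set side by side without a test of their overlap.

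With siY/T, 4 of the 10 genes fell in DMSO (SLC7A11, CBS, CHAC2 and GCLM), where 3.61% of all genes tested fell and 11% rose. In Sorafenib 4 fell as well (SLC7A11, CHAC1, CBS and GCLM), against 3.84% of all genes that fell and 6.11% that rose. The median log2 fold change of the 10 genes was -0.32 in DMSO and -0.31 in Sorafenib, and that of all genes was 0.07 and 0.05. With siATF4, SLC7A11, CHAC1 and CBS fell in both cultures. SLC3A2 rose with it in DMSO and CHAC2 and GCLM rose with it in Sorafenib. Among all genes, 14.1% fell and 8.57% rose with siATF4 in DMSO, and 18.7% fell and 10.3% rose in Sorafenib. The median of the 10 genes was 0.01 in DMSO and 0.18 in Sorafenib, beside -0.0013 and -0.0082 over all genes. Under quantile normalization the share of falls among all genes called was 43% in place of 24.7% for siY/T in DMSO, and 51.5% in place of 64.6% for siATF4 in Sorafenib.

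**Figure D2:**
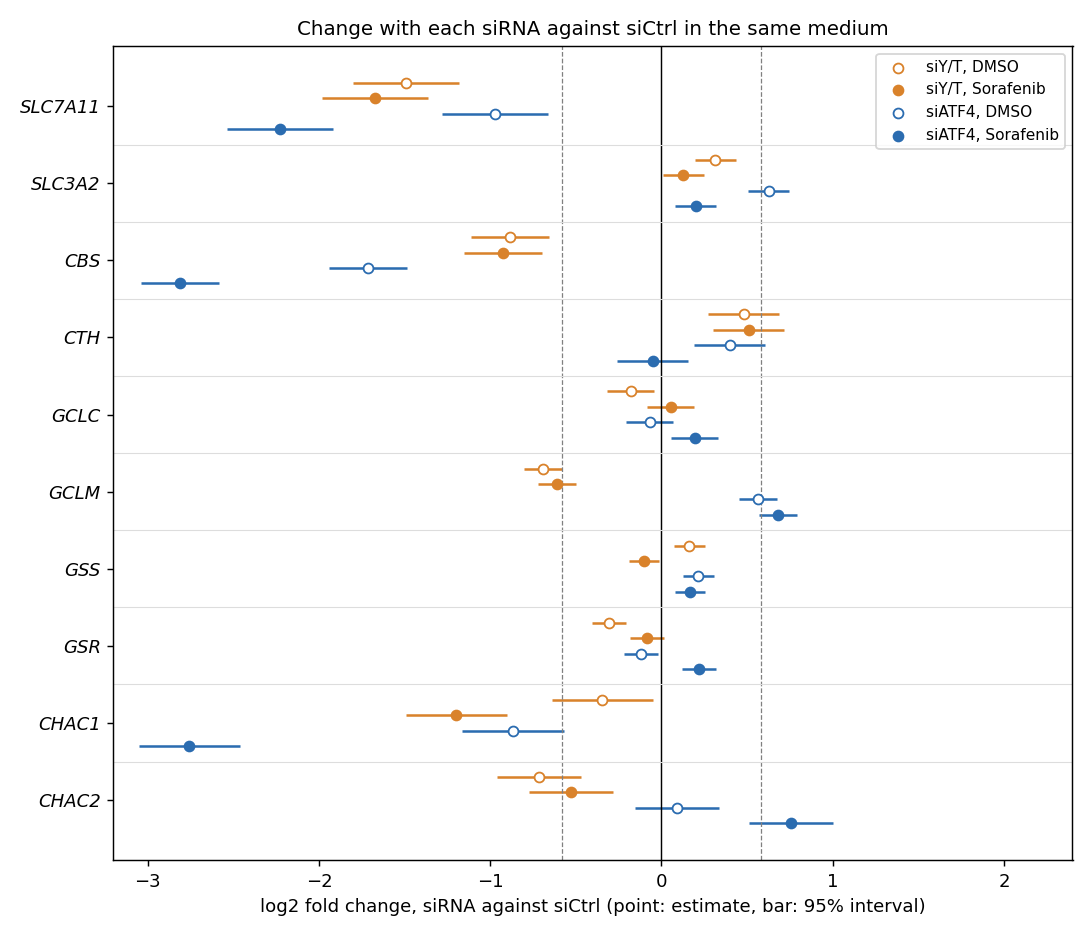
Log2 fold change of each gene (horizontal axis) with siY/T or siATF4 against siCtrl in the same culture; points are estimates from 2 libraries per group, bars their 95% intervals, and dashed lines mark ±0.58. SLC7A11 and CBS lie left of the lower line in all 4 comparisons, and GCLM lies on opposite sides of 0 for the 2 depletions.

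Of the cystine import pair, SLC7A11 fell with both depletions in both cultures, and SLC3A2 fell with neither. SLC7A11 (Entrez 23657; chromosome 4, 139085251 to 139163503, minus strand, GRCh37) measured 24.8 and 21.7 CPM in the siCtrl libraries with DMSO, 7.67 and 8.16 with siY/T, and 11.7 and 11.5 with siATF4. With Sorafenib the values were 64.5 and 67.1 in siCtrl, 25.3 and 16.2 in siY/T, and 14.2 and 13.1 in siATF4 libraries. Both siCtrl libraries lay above both libraries of either depletion in each culture, and the siY/T libraries with Sorafenib overlapped only with the siCtrl libraries in DMSO. Against siCtrl, SLC7A11 fell with siY/T in DMSO (log2 fold change -1.49, SE 0.14, adjusted p 1.63e-06) and in Sorafenib (-1.67, SE 0.14, adjusted p 9.71e-07). It also fell with siATF4 in DMSO (-0.97, SE 0.14, adjusted p 4.88e-05) and in Sorafenib (-2.23, SE 0.14, adjusted p 1.40e-08).

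SLC3A2 (Entrez 6520; chromosome 11, 62623476 to 62656352, plus strand), the heavy chain that also serves other amino acid transporters, had its lowest level in siCtrl cells with DMSO. It measured 139 and 141 CPM in siCtrl with DMSO, 183 and 166 with siY/T, and 213 and 220 with siATF4. The siATF4 rise in DMSO was called (log2 fold change 0.63, SE 0.06, adjusted p 4.15e-07). In Sorafenib the siCtrl libraries measured 192 and 209 CPM, those of siY/T 221 and 217, and those of siATF4 222 and 239. Neither depletion was called there, with log2 fold changes of 0.13 for siY/T and 0.20 for siATF4. The ratio of SLC7A11 to SLC3A2, both per kb, was 0.0324 in siCtrl with DMSO and 0.0641 in siCtrl with Sorafenib. It was 0.0089 and 0.0185 with siY/T and 0.0104 and 0.0116 with siATF4 in the same order.

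SLC7A11 overlaps an antisense gene, SLC7A11-AS1 (Entrez 641364; chromosome 4, 138978618 to 139099331, plus strand), over up to 691 exonic bases, and whether the counting used strand is not stated in the sources used here. SLC7A11-AS1 measured 6.38 and 5.55 CPM in siCtrl with DMSO, 5.01 and 5.19 with siY/T, and 7.80 and 7.65 with siATF4. In Sorafenib it measured 8.25 and 9.02 CPM in siCtrl, 6.01 and 5.49 in siY/T, and 17.3 and 16.5 in siATF4 libraries. In CPM it was the higher of the pair only in the siATF4 libraries with Sorafenib. There it rose against siCtrl (log2 fold change 0.93, SE 0.09, adjusted p 4.65e-07) while SLC7A11 fell. Per kb of transcript it was the higher there (3.631 against 1.415) and also in DMSO with siY/T (1.096 against 0.8205) and with siATF4 (1.659 against 1.2). The part of shared reads in either value was not tested.

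Of the transsulfuration pair, CBS fell with both depletions in both cultures and CTH was called in none of these comparisons. CBS (Entrez 875; chromosome 21, 44473301 to 44497053, minus strand), which condenses homocysteine with serine, measured 51.8 and 46.9 CPM in siCtrl with DMSO, 30.2 and 23.2 with siY/T, and 14.7 in both siATF4 libraries. In Sorafenib it measured 95.6 and 103.8 CPM in siCtrl, 56.7 and 48.1 in siY/T, and 13.8 and 13.7 in siATF4 libraries. The depleted groups stood below siCtrl without overlap in both cultures, and siATF4 was the lowest. CBS fell with siATF4 in DMSO (log2 fold change -1.71, SE 0.10, adjusted p 1.34e-08) and in Sorafenib (-2.81, SE 0.10, adjusted p 1.02e-10). The falls with siY/T were -0.89 (SE 0.10, adjusted p 1.07e-05) and -0.92 (SE 0.10, adjusted p 1.17e-05). A near-identical annotated copy, CBSL, was not analysed here, and the CBS value is uncertain to the extent that reads belong to it.

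CTH (Entrez 1491; chromosome 1, 70876901 to 70905534, plus strand), which releases cysteine from cystathionine, was the least abundant of the 10 genes per kb in siCtrl cells with DMSO. It measured 3.30 and 3.40 CPM in siCtrl with DMSO, 4.84 and 4.90 with siY/T, and 4.74 and 4.42 with siATF4. Its Sorafenib libraries gave 5.22 and 4.27 CPM in siCtrl, 6.76 and 7.13 in siY/T, and 4.59 and 4.49 in siATF4 libraries, the last lying inside the range of siCtrl. Its log2 fold changes with siY/T were 0.48 in DMSO and 0.51 in Sorafenib (adjusted p 0.000778 and 0.000715), short of the fold threshold. Without siCtrl replicate 1, the second became 0.64 and was called. The ratio of CBS to CTH per kb was 12.4 in siCtrl with DMSO and 17.8 with Sorafenib, 4.59 and 6.34 with siY/T, and 2.69 and 2.54 with siATF4.

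The first step of glutathione synthesis showed a stable catalytic and a variable modifier subunit. GCLM (Entrez 2730; chromosome 1, 94350755 to 94375012, minus strand) measured 46.8 and 48.5 CPM in siCtrl with DMSO, 29.7 and 29.0 with siY/T, and 72.1 and 69.4 with siATF4. The Sorafenib values were 34.6 and 33.8 CPM in siCtrl, 23.0 and 21.5 in siY/T, and 55.6 and 54.4 in siATF4 libraries. The 3 siRNA groups stood apart in each culture, with siY/T lowest and siATF4 highest. GCLM fell with siY/T in DMSO (log2 fold change -0.69, SE 0.05, adjusted p 1.77e-07) and in Sorafenib (-0.61, SE 0.05, adjusted p 8.18e-07). Without siY/T replicate 2 the value in Sorafenib was -0.56, which is not called. GCLM rose with siATF4 in Sorafenib (log2 fold change 0.68, SE 0.05, adjusted p 6.67e-08). In DMSO its siATF4 value of 0.57 (SE 0.05, adjusted p 5.33e-07) fell short of the fold threshold, and it was called without replicate 2 of siCtrl or of siATF4 (0.59 in each).

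GCLC (Entrez 2729; chromosome 6, 53362139 to 53481768, minus strand) had log2 fold changes of -0.18 and 0.05 with siY/T and of -0.07 and 0.19 with siATF4 in DMSO and Sorafenib, and none was called. The siY/T value in Sorafenib changed sign under TMM scaling, quantile normalization and edgeR. The ratio of GCLM to GCLC per kb was 1.54 in siCtrl, 1.08 in siY/T and 2.41 in siATF4 libraries with DMSO, and 1.23, 0.770 and 1.72 with Sorafenib. GSS (Entrez 2937; chromosome 20, 33516235 to 33543830, minus strand), which adds glycine, stayed between 99.3 and 125.5 CPM over the 12 libraries. Its log2 fold changes with an siRNA lay at 0.16 and -0.10 for siY/T and at 0.22 and 0.17 for siATF4, and none was called. An exon of MYH7B on the opposite strand overlaps GSS by 138 bases, and MYH7B averaged 0.342 CPM.

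**Figure D3:**
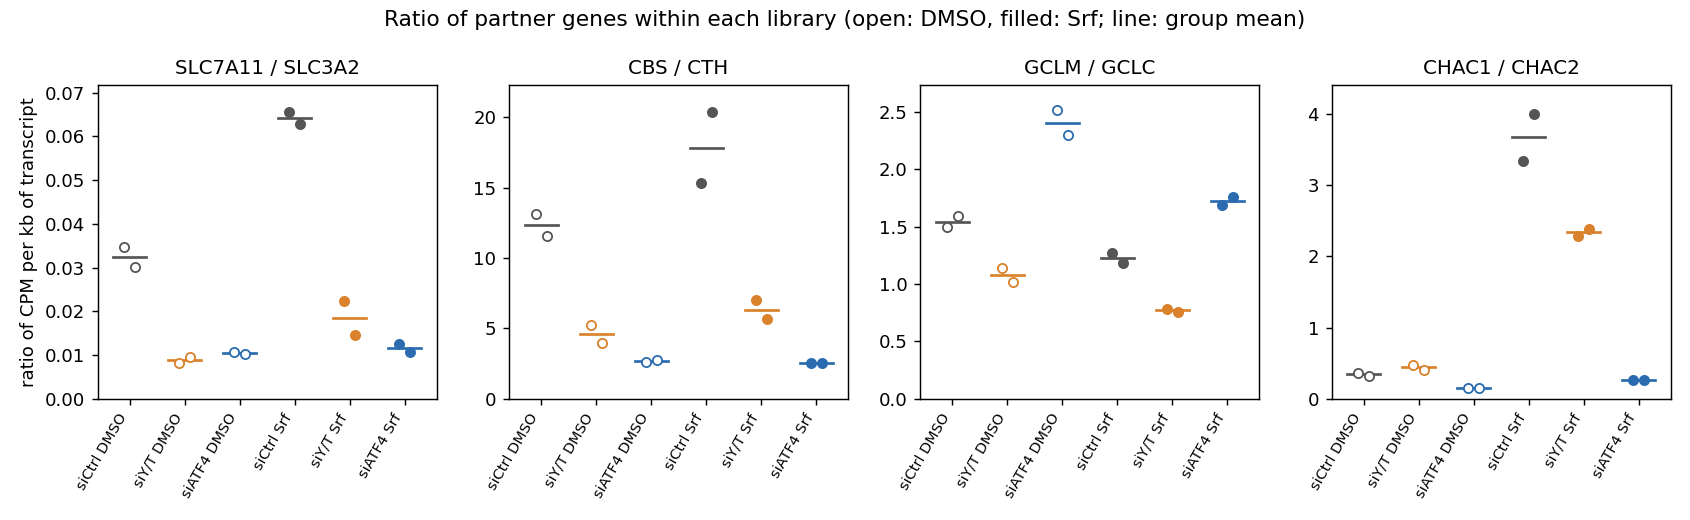
Ratio of partner genes within each library (vertical axes, CPM per kb of transcript over CPM per kb, from 0), by group; circles are libraries (open DMSO, filled Sorafenib) and lines are group means. The ratio of GCLM to GCLC was lowest with siY/T and highest with siATF4 in each culture, and that of CHAC1 to CHAC2 exceeded 1 only in siCtrl and siY/T libraries with Sorafenib.

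GSR, which uses NADPH to reduce oxidised glutathione, stayed between 80.0 and 109.1 CPM. It measured 109.1 and 108.4 CPM in siCtrl with DMSO, 91.9 and 84.3 with siY/T, and 99.6 and 100.7 with siATF4. Among the Sorafenib libraries it had 86.1 and 85.3 CPM in siCtrl, 80.0 and 81.8 in siY/T, and 100.7 and 98.9 in siATF4 libraries. The siATF4 libraries lay below siCtrl in DMSO and above it in Sorafenib. No siRNA comparison passed the fold threshold, with log2 fold changes of -0.30 and -0.08 for siY/T and of -0.12 and 0.22 for siATF4.

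Of the 2 glutathione-cleaving enzymes, CHAC1 fell with siATF4 in both cultures, whereas CHAC2 rose with it in Sorafenib, and both had negative log2 fold changes with siY/T. CHAC1 (Entrez 79094; chromosome 15, 41245160 to 41248710, plus strand), the stress-induced form, measured 3.71 and 3.40 CPM in siCtrl with DMSO, 3.14 and 2.29 with siY/T, and 1.74 and 1.70 with siATF4. In Sorafenib it measured 18.0 and 20.3 CPM in siCtrl, 9.22 and 7.01 in siY/T, and 2.43 and 2.38 in siATF4 libraries. The siATF4 libraries in Sorafenib overlapped with the siY/T libraries in DMSO and lay below every siCtrl library. CHAC1 fell with siATF4 in DMSO (log2 fold change -0.87, SE 0.14, adjusted p 8.80e-05) and in Sorafenib (-2.76, SE 0.14, adjusted p 1.26e-09). With siY/T it fell in Sorafenib (-1.20, SE 0.14, adjusted p 1.25e-05), and its value of -0.34 in DMSO (adjusted p 0.044) was not called.

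CHAC2 (Entrez 494143; chromosome 2, 53994941 to 54002333, plus strand), the constitutive form, measured 8.97 CPM in both siCtrl libraries with DMSO, 5.66 and 4.90 with siY/T, and 9.54 and 9.66 with siATF4. Under Sorafenib the libraries gave 4.64 and 4.36 CPM in siCtrl, 3.47 and 2.52 in siY/T, and 8.08 and 7.81 in siATF4 libraries. It fell with siY/T in DMSO (log2 fold change -0.72, SE 0.11, adjusted p 0.000132) and rose with siATF4 in Sorafenib (log2 fold change 0.76, SE 0.11, adjusted p 4.53e-05). The siY/T value in Sorafenib was -0.53 (SE 0.11, adjusted p 0.00191), not called, but it passed at -0.63 by both edgeR and DESeq2, at -0.61 under quantile normalization, at -0.59 with a pseudocount of 0.1, and at -0.72 without siY/T replicate 1. It was -0.47 with a pseudocount of 1 and -0.33 without siY/T replicate 2, neither called. The ratio of CHAC1 to CHAC2 per kb was 0.341, 0.441 and 0.154 in siCtrl, siY/T and siATF4 libraries with DMSO, and 3.68, 2.34 and 0.260 with Sorafenib.

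The response to Sorafenib was compared within each siRNA. In siCtrl cells SLC7A11, CBS and CHAC1 rose and CHAC2 fell, where 12.3% of all genes rose and 5.15% fell. The log2 fold changes were 1.48 for SLC7A11 (SE 0.14, adjusted p 1.44e-06), 1.01 for CBS (SE 0.10, adjusted p 2.85e-06), 2.28 for CHAC1 (SE 0.14, adjusted p 3.00e-08) and -0.92 for CHAC2 (SE 0.11, adjusted p 1.26e-05). SLC3A2 (0.51), CTH (0.44), GCLM (-0.47) and GSR (-0.34) had adjusted p-values of at most 0.00131 but missed the fold threshold, and GCLC had -0.15. GSS had 0.02, with overlapping libraries and a sign that changed under TMM scaling, edgeR and DESeq2.

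In siY/T cells the called set was SLC7A11, CBS and CHAC1 higher and CHAC2 lower, where 5.83% of all genes rose and 4.14% fell. The log2 fold changes were 1.31 for SLC7A11 (SE 0.14, adjusted p 9.46e-06), 0.97 for CBS (SE 0.10, adjusted p 8.59e-06), 1.42 for CHAC1 (SE 0.14, adjusted p 3.12e-06) and -0.74 for CHAC2 (SE 0.11, adjusted p 0.000151). The CHAC2 value was -0.54 and not called without siY/T replicate 2 in Sorafenib. In siATF4 cells 0 of the 10 genes were called by limma, and 0 by edgeR or DESeq2, where 8.63% of all genes were called. Of the 10 genes, 3 had an unadjusted p under 0.05 by each of the 3 tools, and these were CHAC1 (log2 fold change 0.39), CHAC2 (-0.26) and GCLM (-0.36) in limma. SLC7A11 had a log2 fold change of 0.23 there, with a 95% interval from -0.08 to 0.54, and CBS had -0.09, with an interval from -0.32 to 0.13. Under quantile normalization the share of falls among all genes called was 47.7% in place of 29.5% in siCtrl, 53.1% in place of 41.5% in siY/T and 45.3% in place of 34.2% in siATF4 cells.

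**Figure D4:**
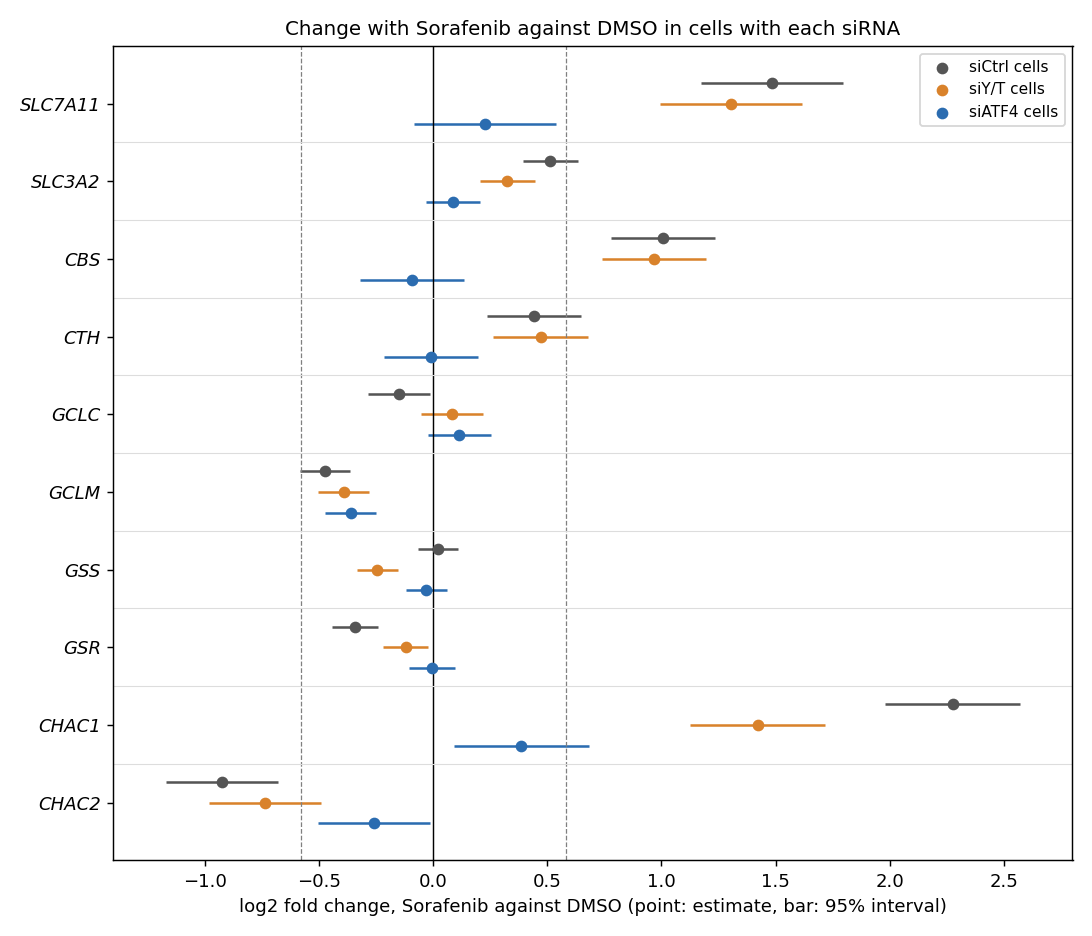
Log2 fold change of each gene with Sorafenib against DMSO (horizontal axis) in cells with siCtrl, siY/T or siATF4; points are estimates from 2 libraries per group, bars their 95% intervals, and dashed lines mark ±0.58. SLC7A11, CBS and CHAC1 lie right of the upper line in siCtrl and siY/T cells and between the lines in siATF4 cells.

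Whether a depletion acted differently in the 2 cultures was tested as the siRNA effect in Sorafenib minus that in DMSO, called at an adjusted p under 0.05. ATF4 mRNA itself differed in this way. With siATF4 its log2 fold change was -1.33 in DMSO and -2.47 in Sorafenib (difference -1.14, SE 0.06, adjusted p 2.84e-07). With siY/T it was -0.30 and -0.63 (difference -0.33, SE 0.06, adjusted p 0.00348). The part of these ATF4 differences in those of the 10 genes was not tested. For siATF4, 8 of the 10 genes were called, where 41.1% of all genes were (21.8% lower and 19.3% higher). The log2 fold change with siATF4 was lower in Sorafenib for CHAC1 (log2 difference -1.89, SE 0.19, adjusted p 1.28e-05), SLC7A11 (-1.26, SE 0.20, adjusted p 0.00036) and CBS (-1.10, SE 0.15, adjusted p 9.78e-05), which fell further there. It was also lower for CTH (-0.45, SE 0.14, adjusted p 0.0178) and for SLC3A2 (-0.43, SE 0.08, adjusted p 0.000921), whose positive value was smaller there. It was higher for CHAC2 (0.66, SE 0.16, adjusted p 0.00541), GSR (0.34, SE 0.06, adjusted p 0.00125) and GCLC (0.26, SE 0.09, adjusted p 0.0317). The calls of CTH and GCLC were lost under several alternatives, among them DESeq2 (adjusted p 0.068 and 0.0505). Among single libraries, the CTH call was lost without siCtrl replicate 1 in DMSO (adjusted p 0.053), siATF4 replicate 1 in DMSO (0.0681) or siCtrl replicate 1 in Sorafenib (0.0847), and under quantile normalization (0.0972). The GCLC call was lost without either siCtrl library or siATF4 replicate 1 in DMSO, or without replicate 1 of siCtrl or siATF4 in Sorafenib, with adjusted p-values from 0.0635 to 0.118.

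For siY/T, 3 of the 10 genes were called, where 22% of all genes were (14.2% lower and 7.81% higher). The log2 fold change with siY/T was lower in Sorafenib for CHAC1 (difference -0.85, SE 0.19, adjusted p 0.00835) and GSS (-0.26, SE 0.06, adjusted p 0.00699) and higher for GSR (0.22, SE 0.06, adjusted p 0.028). The call of GSR was lost under quantile normalization, in a fit of the groups compared alone and without any 1 of the 4 siCtrl libraries or of the 2 siY/T libraries in Sorafenib, with adjusted p-values from 0.053 to 0.0919. Without siY/T replicate 2 in DMSO, SLC3A2 (-0.26, adjusted p 0.00842) and GCLC (0.29, adjusted p 0.0218) were called as well, and GCLC was also called under quantile normalization (0.28, adjusted p 0.0376). For SLC7A11 the difference was -0.18 (SE 0.20, adjusted p 0.552), with a 95% interval from -0.62 to 0.26. That value rested on the 2 siY/T libraries in Sorafenib: it was -0.49 (adjusted p 0.0205) without replicate 1 and 0.13 (adjusted p 0.451) without replicate 2.

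The 2 depletions were also compared directly, without siCtrl. With siATF4 against siY/T in DMSO, CBS was lower and CHAC2 and GCLM were higher, where 22.7% of all genes were lower and 13% higher. In Sorafenib CBS and CHAC1 were lower and CHAC2 and GCLM were higher, where 23.7% were lower and 14.8% higher. GCLM had log2 fold changes of 1.26 (SE 0.05, adjusted p 9.47e-11) and 1.29 (SE 0.05, adjusted p 7.31e-11), and CHAC2 had 0.81 and 1.29 (SE 0.11 in each). CBS differed by -0.83 and -1.89 (SE 0.10 in each), and CHAC1 by -0.52, not called, and -1.56 (SE 0.14 in each). The CHAC1 value in DMSO was called by edgeR (-0.61) and DESeq2 (-0.60), with a pseudocount of 0.1 (-0.61) and without siY/T replicate 2 (-0.71), and it was -0.17 under quantile normalization and -0.33 without siY/T replicate 1. CTH differed by -0.56 in Sorafenib, which passed the fold threshold with a pseudocount of 0.1 (-0.60) or without siY/T replicate 1 (-0.60) and was -0.24 under quantile normalization. Quantile normalization shifted the median of all genes by 0.125 in DMSO and 0.124 in Sorafenib and left falls at 48.4% and 48.5% of all calls in place of 63.7% and 61.5%. CTH in DMSO changed sign under quantile normalization, from -0.08 to 0.24, a larger move than that of the median.

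SLC7A11 was the only one of the 10 genes that was lower in one depletion in DMSO and lower in the other in Sorafenib at an adjusted p under 0.05. Its log2 fold change with siATF4 against siY/T was 0.52 in DMSO (SE 0.14, adjusted p 0.0047) and -0.56 in Sorafenib (SE 0.14, adjusted p 0.00297), both short of the fold threshold. Each SE uses the spread shared by all groups, whereas the siY/T libraries in Sorafenib differed widely from each other (25.3 and 16.2 CPM). The change between cultures, a contrast added after these values were seen, was -1.08 (SE 0.20, adjusted p 0.00134), where 34.3% of all genes passed the same test. That test was passed by 7 of the 10 genes, among them CBS (-1.06, adjusted p 0.000143), CHAC1 (-1.04, adjusted p 0.00129), CTH (-0.48), CHAC2 (0.48), SLC3A2 (-0.24) and GSS (0.21), the last 4 not under every alternative. The SLC7A11 value ranged from -1.39 to -0.76 when single libraries were left out and kept an adjusted p of at most 0.00894 there. In DMSO the difference was called under TMM scaling (0.58), quantile normalization (0.73), edgeR (0.62) and DESeq2 (0.62), and in Sorafenib without siY/T replicate 2 (-0.87) or siATF4 replicate 1 (-0.61). Without siY/T replicate 1 in Sorafenib the value there was -0.24.

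Other genes of the pathway were taken from a list of 65, of which 58 were tested. With siY/T in DMSO 1 fell (1.72% of the 58, beside 3.61% of all genes) and 7 rose (12.1%, beside 11%). With siY/T in Sorafenib 2 fell and 2 rose (3.45% each, beside 3.84% and 6.11% of all genes). With siATF4 in DMSO 13 fell (22.4%, beside 14.1%) and 1 rose (1.72%, beside 8.57%). With siATF4 in Sorafenib 16 fell (27.6%, beside 18.7%) and 7 rose (12.1%, beside 10.3%). With Sorafenib in siCtrl cells 2 fell (3.45%, beside 5.15%) and 8 rose (13.8%, beside 12.3%). The medians over these genes were -0.01 and -0.08 for siY/T, -0.02 and -0.15 for siATF4 (each in DMSO and Sorafenib) and 0.07 for Sorafenib in siCtrl cells.

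GGT1, the surface enzyme that opens glutathione breakdown outside the cell, had the largest change of these genes with either siRNA in DMSO, and the 2 changes were in opposite directions. It measured 8.34 and 8.06 CPM in siCtrl with DMSO, 59.1 and 57.5 with siY/T, and a mean of 1.29 ± 0.30 (SD, n = 2) with siATF4. The libraries with Sorafenib held 21.5 and 21.2 CPM in siCtrl, 68.6 and 74.8 in siY/T, and 2.35 and 2.27 in siATF4 cells. The log2 fold changes against siCtrl were 2.76 and 1.72 with siY/T (adjusted p 5.76e-10 and 2.68e-08) and -2.30 and -2.96 with siATF4 (adjusted p 3.91e-10 and 4.18e-11). GGT1 belongs to a family with near-identical copies, so its counts are uncertain, and the related GGT3P, GGTLC1 and GGTLC2 reached at most 4.90, 3.37 and 10.5 CPM.

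SLC3A1, the heavy chain of another cystine transporter, rose with siY/T (log2 fold change 1.30 in DMSO and 1.44 in Sorafenib). It measured 4.82 ± 0.09 CPM (SD, n = 2) in siCtrl, 12.6 ± 0.74 in siY/T and 2.24 ± 0.31 in siATF4 libraries with DMSO. In Sorafenib its means were 3.77 CPM in siCtrl, 11.05 with siY/T and 2.11 with siATF4. Like GGT1, it was thus above siCtrl with siY/T and below it with siATF4. TXNRD1, which reduces thioredoxin, fell with siY/T in both cultures (-0.79 and -0.75), from 352.6 ± 0.04 to 204.0 ± 9.69 CPM in DMSO. SRXN1, which repairs oxidised peroxiredoxins, rose with siATF4 (0.61 and 1.04) and fell with Sorafenib in siCtrl cells (-0.66). SLC1A4, a neutral amino acid transporter, fell with siATF4 in Sorafenib (-1.36) and with siY/T in Sorafenib (-0.74). Its mean in DMSO was 39.7 CPM in siCtrl, 37.9 with siY/T and 22.7 with siATF4. IDH1, which supplies NADPH, fell with siATF4 in DMSO (-1.38) from 79.8 to 30.4 CPM. In Sorafenib its mean was 92.1 CPM in siCtrl and 38.6 CPM with siATF4.

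**Figure D5:**
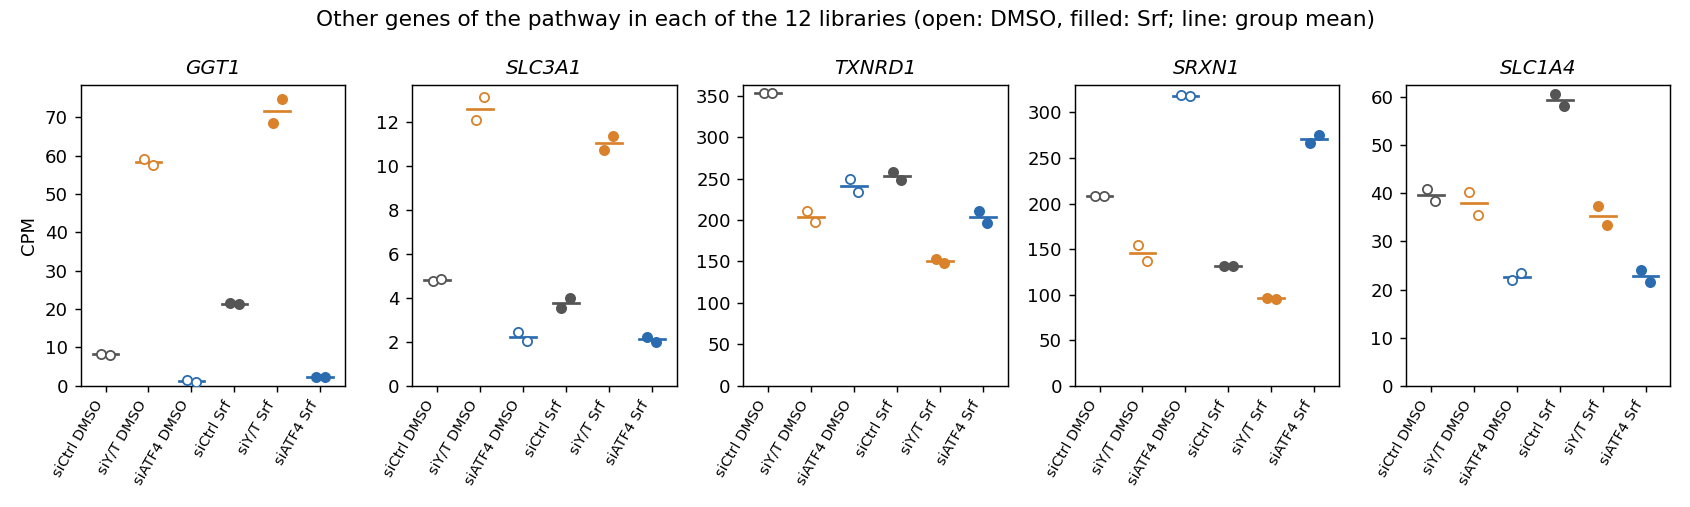
Level in CPM (vertical axes, from 0) of 5 other pathway genes in each of the 12 libraries, by group; circles are libraries (open DMSO, filled Sorafenib) and lines are group means. GGT1 and SLC3A1 are highest in the siY/T libraries and lowest in the siATF4 libraries, and SRXN1 shows the reverse order within each culture.

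The profile of each gene over the 12 libraries, centred on its own mean in log2(CPM + 0.5), was set against those of 11152 genes whose mean reached 5 CPM. The smallest root mean square differences from SLC7A11 were those of ADAMTSL4 (0.39), ASNS (0.42), WNT2B (0.45), PSAT1 (0.45) and ADAMTS2 (0.50), beside 0.95 for a flat profile. ASNS makes asparagine and PSAT1 acts in serine synthesis. CHAC1 stood at rank 6, CBS at rank 16 and the partner SLC3A2 at rank 5536. For CHAC1 the nearest were ADM2 (0.38), CACNA1H (0.42), PCK2 (0.45), CBS (0.45) and ABCA1 (0.48), beside 1.09 for a flat profile, with SLC7A11 at rank 9. These ranks describe 12 libraries from 6 shared groups and carry no test.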

How the data were processed

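Poly(A) RNA from HLE cells was made into stranded libraries and sequenced as single-end reads. The authors aligned them to hg19 by STAR, counted unique hits over RefSeq mRNA exons with QuasR, and deposited CPM values (counts per 1000000) for each of the 12 libraries. Whether the counting used strand is not given in the sources used here. Every deposited CPM value was a whole multiple of 1 read within 0.001 read (100% of values in each library), so reads were recovered. They served edgeR 4.0.16 and DESeq2 1.42.0 as alternatives to the main test.

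Genes reaching 1 CPM in 2 or more libraries were fitted in 1 model of all 12 libraries (6 groups, 6 residual degrees of freedom) with limma 3.58.1 (R 4.3.3, trended variance) on log2(CPM + 0.5). Fold changes are on that scale, which understates changes of low genes. Symbols came from Entrez identifiers through RefSeq (26111 of 26258 named), positions and transcript lengths from GENCODE lifted to GRCh37, and promoter windows from RefSeq GRCh38.p14. Named beside the 10 members were the siRNA targets, NFE2L2, an antisense gene, the 5 nearest profiles, and, of the other pathway genes called in a comparison with a mean of at least 5 CPM, up to 3 falls and 3 rises with the largest change, from which the text gives examples. The members and lists were chosen with earlier results of these data known. Alternatives were a pseudocount of 0.1 or 1, no filter (20710 genes), TMM scaling, quantile normalization, a block for the replicate number, fits restricted to the compared groups, adjusted p-values with the same fold threshold, the 2 count tools, and leaving out each of the 12 libraries. The depth limits each value to steps of 1 read.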

Additional observations from a re-analysis of the deposited data

Results flagged for a closer look

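The effect of a depletion differed between Sorafenib and DMSO, by an interaction term in the limma fit, for the following genes. For siATF4 the log2 differences were -1.89 for CHAC1, -1.26 for SLC7A11, -1.10 for CBS, -0.45 for CTH, -0.43 for SLC3A2, 0.66 for CHAC2, 0.34 for GSR and 0.26 for GCLC. For siY/T they were -0.85 for CHAC1, -0.26 for GSS and 0.22 for GSR. For ATF4 mRNA itself the difference was -1.14 with siATF4 and -0.33 with siY/T. The direct difference between siATF4 and siY/T changed from DMSO to Sorafenib by -1.08 for SLC7A11, -1.06 for CBS, -1.04 for CHAC1, -0.48 for CTH, -0.24 for SLC3A2, 0.48 for CHAC2 and 0.21 for GSS, in a contrast added after the values were seen.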

How the results depend on the processing

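Of 2610 values recomputed for the 10 genes under up to 22 alternatives, 2517 kept their direction and their side of the threshold, 43 lost the call, 25 gained one and 25 changed sign. Many of these could not change the log2 fold change. It stays the same without a filter, with the replicate block, in the restricted fit and with adjusted p-values. The same holds when a library of a group not compared is left out. The total is therefore no measure of stability. The number of genes called with siATF4 against siY/T in DMSO was 5 by edgeR and 5 by DESeq2 in place of 3, the added genes being SLC7A11 and CHAC1. Leaving out single libraries gave 4 to 4 called genes for siY/T in DMSO, 3 to 5 in Sorafenib, 4 to 5 and 5 to 5 for siATF4, 4 to 4, 3 to 4 and 0 to 0 for Sorafenib in siCtrl, siY/T and siATF4 cells, 3 to 4 and 4 to 5 for siATF4 against siY/T, and 2 to 5 and 6 to 8 for the differences between effects of siY/T and siATF4. The 5 totals of other pathway genes called stayed within 1.5 times under the same alternatives, which were added for them after seeing the data. Counts by direction moved more where they were small, for example from 1 to 3 for rises with siATF4 in DMSO without siCtrl replicate 1, from 1 to 2 for falls with siY/T in DMSO by DESeq2, and from 2 to 1 for falls with Sorafenib in siCtrl cells with a pseudocount of 1.

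None of the values that changed sign was called in the fit reported. GCLC with siY/T in Sorafenib was -0.0014 under TMM scaling, -0.0251 under quantile normalization and -0.0016 by edgeR. GSS with Sorafenib in siCtrl cells was -0.0108 under TMM scaling, -0.0108 by edgeR and -0.0212 by DESeq2. CTH under quantile normalization was 0.2189 with siATF4 in Sorafenib and 0.2358 with siATF4 against siY/T in DMSO. With single libraries left out, CTH ranged from -0.1826 to 0.0787 with siATF4 in Sorafenib and from -0.0546 to 0.0362 with Sorafenib in siATF4 cells, where GSR ranged from -0.0176 to 0.0074. The difference between siY/T effects ranged from -0.4928 to 0.1343 for SLC7A11, from -0.0082 to 0.3826 for CHAC2, from -0.2246 to 0.1462 for CBS and from -0.1013 to 0.1600 for CTH. The change between cultures of siATF4 against siY/T ranged from -0.0290 to 0.0923 for GCLC and from -0.0141 to 0.0762 for GCLM. In that contrast SLC7A11, CBS and CHAC1 kept the call under every alternative, whereas SLC3A2 and CHAC2 lost it without any filter (adjusted p 0.0685 and 0.0938), CTH lost it by DESeq2 (0.0512) and GSS lost it without siATF4 replicate 1 in DMSO (0.0501). SLC3A2 and CHAC2 also lost it in a fit of the groups compared alone, and both of them and CTH without single libraries. The cause was not tested.

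The replicate numbers were shared between groups but no label ties a number to a batch or day, and the deviations of same-numbered libraries correlated between -0.282 and 0.193 over the pairs of groups. With the replicate number as a block, the counts of called genes were as without it, for example 4 for siY/T in DMSO, 4 for siATF4 in DMSO, 5 for siATF4 in Sorafenib and 4 for Sorafenib in siCtrl cells. Every group held a library of each number, so the block left the fold changes as they were and could move only the p-values. The equal counts therefore do not decide whether the numbers mark a batch. With 2 libraries a group, small differences of genes at few CPM (CTH, CHAC1 and CHAC2) rest on few reads and on the shared estimate of spread. Over all genes, edgeR on the recovered reads called 2238 and 1606 genes with siY/T in DMSO and Sorafenib (limma 1973 and 1345) and 3501 and 4292 with siATF4 (limma 3068 and 3911).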
